A study of Mus musculus with 2 samples.

Results

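Foxp3, Ikzf2, Maf and Capg are 4 of the 2000 genes in the deposited single-cell files. They were taken by name, as genes known from regulatory T cells and from IL-10-producing type 1 regulatory (Tr1) cells. They were chosen with earlier results of these data known. All 4 were measured in both libraries. The study transplanted spleen and bone-marrow cells of WT C57BL/6 donor mice into lethally irradiated WT BALB/C recipients, and treated these with an anti-IL-2 mAb or with Tacrolimus from day 0 to day 6. Donor T cells were recovered from recipient spleens on day 6 and sequenced as 1 library per treatment. The labels do not say how many animals were pooled, and every cell came from an irradiated, transplanted and treated host, with no untreated group analysed here. With 1 library per treatment no test between treatments was possible. Intervals below are exact 95% intervals that cover counting error only.

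Foxp3 encodes the transcription factor that specifies regulatory T cells, which depend on IL-2 for their survival and restrain graft-versus-host reactions. Ikzf2 encodes Helios, an Ikaros-family zinc-finger protein found in most thymus-derived regulatory T cells but also in other T cells after activation. Maf encodes the bZIP factor c-Maf, a driver of Il10 and Il21 in Tr1, follicular helper and other helper cells. Capg encodes a gelsolin-family protein that caps actin filaments and is known from macrophages and from effector and regulatory T cells.

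In the GRCm38 (mm10) annotation Foxp3 lies on the X chromosome from 7573644 to 7595245 on the plus strand, Ikzf2 on chromosome 1 from 69531214 to 69687245 on the minus strand, Maf on chromosome 8 from 115682942 to 115707794 on the minus strand, and Capg on chromosome 6 from 72544391 to 72562983 on the plus strand. All 4 are protein-coding. Foxp3 and Ikzf2 are tagged there as overlapping another locus, so their counts carry the uncertainty of shared reads. The Foxp3 promoter is shown because Tacrolimus blocks calcineurin and thereby NFAT, and anti-IL-2 reduces IL-2 signalling through STAT5, both known inputs to this gene. The window is the 250 bases before the RefSeq start, chrX:7579426-7579675, GRCm38.p6, plus strand, and the capitals mark the NFAT core motif GGAAA read on the other strand.
Foxp3: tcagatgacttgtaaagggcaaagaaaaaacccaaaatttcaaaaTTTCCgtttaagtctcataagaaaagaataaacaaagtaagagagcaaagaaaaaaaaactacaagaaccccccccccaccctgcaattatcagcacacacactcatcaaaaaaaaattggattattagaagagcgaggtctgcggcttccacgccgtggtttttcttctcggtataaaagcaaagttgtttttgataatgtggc
The Foxp3 window held 1 match to GGAAA on either strand and 0 matches to the STAT motif TTCNNNGAA. Of all 32851 promoter windows of this length, 55.6% held the NFAT core and 7.02% the STAT motif.

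Cells with at least 200 detected genes numbered 1243 in the anti-IL-2 library and 1475 in the tacrolimus library, with medians of 12727 and 13254 UMIs. Of 10 T-cell markers only Cd5 was among the measured genes, and 940 anti-IL-2 and 1103 tacrolimus cells had it. Of these, 369 and 393 had 2 or more B-cell or 2 or more myeloid markers. The myeloid list included Cst3, which was also common in the T cells that were kept. After cells with 2 or more B-cell or 2 or more myeloid markers were left out, and those with both or neither of Cd4 and Cd8a/Cd8b1, 188 CD4 and 313 CD8 cells remained in the anti-IL-2 library and 204 CD4 and 422 CD8 cells in the tacrolimus library. A wider gate, which needed only Cd4 or Cd8a/Cd8b1 and was added after the data had been seen, held 285 CD4 and 775 CD8 anti-IL-2 cells and 294 CD4 and 1006 CD8 tacrolimus cells. A cell was called dividing when at least 25% of 58 measured S and G2/M genes were detected, which held for 43 CD4 and 205 CD8 cells of the anti-IL-2 library and for 147 CD4 and 374 CD8 cells of the tacrolimus library. The percent of cells with each of 16 pancreatic genes, which T cells are not known to make, summed to 11.7 and 26.2 percent in anti-IL-2 CD4 and CD8 cells, against 154 and 167 percent in tacrolimus CD4 and CD8 cells. The part of this RNA in the differences between the libraries was not tested. The libraries shared 4 cell barcodes, and 308 anti-IL-2 cells listed again beside the tacrolimus cells were used once.

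Foxp3 was detected in very few cells of either library, and most of the cells with it also had other regulatory T-cell genes. It was found in 13 of 1551 cells of the anti-IL-2 library, 0.838% (0.447 to 1.43%), and in 10 of 1688 tacrolimus cells, 0.592% (0.284 to 1.09%). These are all cells, without the minimum of 200 detected genes, which 9 of the 13 and 8 of the 10 reached. The intervals of both libraries overlap, so no difference in the share of Foxp3 cells was detectable at this depth. Of the anti-IL-2 cells, 3 had 1 Foxp3 UMI, 5 had 2, 2 had 3, 2 had 4 and 1 had 9, as recovered from integrated values. Of the tacrolimus cells, 6 had 1 Foxp3 UMI and 1 each had 2, 3, 5 and 7. Most tacrolimus Foxp3 cells thus had 1 molecule. The anti-IL-2 counts were rounded from fitted values and set to at least 1, so they cannot be compared with the tacrolimus counts.

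Within the gates only 4 cells had Foxp3. It was in 2 of 188 anti-IL-2 CD4 cells, 1.06% (0.129 to 3.79%), both of them non-dividing, and in 1 of 204 tacrolimus CD4 cells, 0.49% (0.0124 to 2.7%), also non-dividing. In CD8 cells Foxp3 was in 0 of 313 anti-IL-2 cells, for which a limit of 3 counts is 0.958% and the exact upper bound 1.17%, and in 1 of 422 tacrolimus cells, 0.237% (0.006 to 1.31%), a dividing cell. The wider gate held 5 anti-IL-2 and 4 tacrolimus cells with Foxp3. Cells with B, myeloid or erythroid markers and no Cd4, Cd8 or Cd5 were looked at as well. Foxp3 was in 0 of 51 such anti-IL-2 cells (median 7268 UMIs) and 0 of 45 tacrolimus cells (median 8909 UMIs), where 3 counts would be 5.88% and 6.67%. These limits lie above the Foxp3 shares of the T cells, so a background of free Foxp3 RNA could not be measured at this number of cells. The myeloid marker Cst3 was also in 68.1% of gated anti-IL-2 and 79.9% of gated tacrolimus CD4 cells without Ikzf2. T cells may therefore be among these cells.

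The Foxp3 cells fell on no single side of the Cd4 and Cd8 split. Of the 13 anti-IL-2 cells 4 had Cd4 alone, 4 Cd8a or Cd8b1 alone, 3 both and 2 neither. Of all anti-IL-2 cells these were 25.2%, 54.8%, 7.35% and 12.6%. Of the 10 tacrolimus cells 3 had Cd4 alone, 2 Cd8a or Cd8b1 alone, 1 both and 4 neither. Of all tacrolimus cells these were 19.8%, 62.3%, 5.57% and 12.3%. Cells with Cd8a or Cd8b1 alone were thus a smaller part of these few Foxp3 cells than of all cells, in both libraries. Of the Foxp3 cells, 4 of 13 in the anti-IL-2 library and 3 of 10 in the tacrolimus library had 2 or more B-cell or myeloid markers, against 35.7% and 36.6% of all cells. The dividing state was reached by 5 of 13 and 6 of 10 Foxp3 cells, against 44.4% and 71.4% of all cells.

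Ikzf2 was the member most often found beside Foxp3 relative to its overall share, in 9 of 13 anti-IL-2 Foxp3 cells and 8 of 10 tacrolimus Foxp3 cells, against 21.2% and 15% of all cells. Izumo1r, which encodes folate receptor 4, a surface marker of regulatory and follicular T cells, was in 10 of 13 and 8 of 10, against 12.2% and 5.51%. Tnfrsf4, which encodes the costimulatory receptor OX40, was in 11 of 13 and 8 of 10, against 23.7% and 23.4%. These 3 genes were thus in most Foxp3 cells of both libraries and in at most 23.7% of cells at large. Gated CD4 cells had higher shares than cells at large, though below those of the Foxp3 cells. With tacrolimus cells thinned to the anti-IL-2 depths, they were 28.2% and 22.1% for Ikzf2 and 27.1% and 12.3% for Izumo1r. Tnfrsf4 was in 49.5% of CD4 cells of each library. Il2ra, the high-affinity IL-2 receptor alpha chain gene of regulatory T cells, was in 6 of 13 and 5 of 10, against 15.4% and 32.0%. Ccr8, a chemokine receptor gene of activated regulatory T cells, was in 4 of 13 and 2 of 10, against 1.48% and 2.19%. Il10 was in 2 of 13 and 3 of 10, against 2.26% and 3.79%. At least 2 of Il2ra, Ctla4, Izumo1r and Tnfrsf4 were detected in 11 of 13 anti-IL-2 and 9 of 10 tacrolimus Foxp3 cells, against 30.4% and 35.2% of all cells.

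Maf was above its overall share in both libraries, in 5 of 13 and 7 of 10 Foxp3 cells, against 22.2% and 25.9% of all cells. Other genes were closer to their overall shares, or below them, in at least 1 library. Capg was in 10 of 13 and 7 of 10 Foxp3 cells, against 50.7% and 65.5% of all cells. Nrp1, a surface marker of thymus-derived regulatory T cells in mice, was in 3 of 13 and 2 of 10, against 38.4% and 33.5%. Tcf7, the TCF-1 gene of naive and stem-like T cells, was in 0 of 13 and 0 of 10 Foxp3 cells, against 37.8% and 7.88% of all cells. The anti-IL-2 Foxp3 cells were shallower than their library (median 7126 against 10630 UMIs), whereas the tacrolimus Foxp3 cells were not (11975 against 12074 UMIs).

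**Figure D1:**
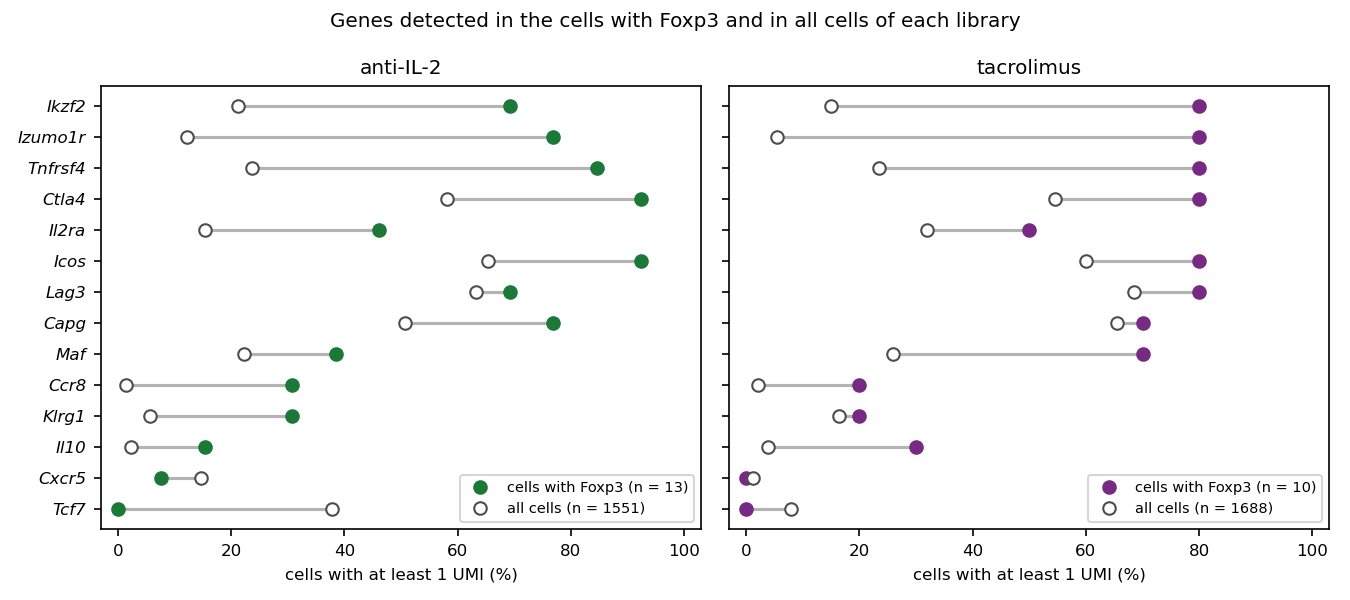
Percent of cells with at least 1 UMI of each gene, among cells with Foxp3 (filled) and among all cells of the library (open), for the anti-IL-2 library (13 Foxp3 cells, left) and the tacrolimus library (10 Foxp3 cells, right). Ikzf2, Izumo1r and Tnfrsf4 lie far to the right of their overall share in both libraries, while Tcf7 was in none of the Foxp3 cells of either.

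Nearly all Ikzf2 cells had no detected Foxp3. Of 329 anti-IL-2 cells with Ikzf2, 320 (97.3%) had no Foxp3 UMI, and of 254 tacrolimus cells with Ikzf2, 246 (96.9%) had none. In the gated anti-IL-2 cells Ikzf2 was in 23.3% of dividing CD4 cells (11.8 to 38.6%), 29.7% of non-dividing CD4 cells (22.4 to 37.8%), 22.4% of dividing CD8 cells (16.9 to 28.8%) and 25.9% of non-dividing CD8 cells (18.0 to 35.2%). All 4 intervals overlap, so no order of these classes could be read for Ikzf2. In the gated tacrolimus cells it was in 25.2% of dividing CD4 cells (18.4 to 33.0%), 22.8% of non-dividing CD4 cells (12.7 to 35.8%), 14.7% of dividing CD8 cells (11.3 to 18.7%) and 14.6% of non-dividing CD8 cells (6.07 to 27.8%). Over both division states it was in 24.5% of tacrolimus CD4 cells (18.8 to 31.0%) and 14.7% of tacrolimus CD8 cells (11.5 to 18.4%), intervals that do not overlap, while the division states within each gate did overlap. In the cells with B, myeloid or erythroid markers Ikzf2 was in 3 of 51 anti-IL-2 cells (5.88%) and 1 of 45 tacrolimus cells (2.22%), below every gated class.

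As a level, Ikzf2 summed to 0.313 UMIs per 10000 in tacrolimus CD4 cells (0.249 to 0.387) and 0.11 in tacrolimus CD8 cells (0.0863 to 0.137). Of the 50 tacrolimus CD4 cells with Ikzf2, 29 had 1 UMI, 14 had 2 and 7 had 3 or more, with a highest of 7, and of the 62 CD8 cells 51 had 1 UMI, 9 had 2 and 2 had 3 or more. A cell without an Ikzf2 UMI may therefore still express the gene. None of the other 4 Ikaros-family genes was measured, so Ikzf2 could not be set beside its relatives.

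Maf followed the CD4 gate. In anti-IL-2 cells it was in 65.1% of dividing CD4 cells (49.1 to 79.0%), 43.4% of non-dividing CD4 cells (35.2 to 51.9%), 7.8% of dividing CD8 cells (4.53 to 12.4%) and 9.26% of non-dividing CD8 cells (4.53 to 16.4%). In tacrolimus cells it was in 73.5% of dividing CD4 cells (65.6 to 80.4%), 59.6% of non-dividing CD4 cells (45.8 to 72.4%), 13.9% of the dividing CD8 cells (10.6 to 17.8%) and 18.8% of non-dividing CD8 cells (8.95 to 32.6%). The CD4 and CD8 intervals were apart in both libraries, whichever division state was taken. Maf summed to 1.11 UMIs per 10000 in tacrolimus CD4 cells (0.984 to 1.24) and 0.124 in tacrolimus CD8 cells (0.0991 to 0.153). In the cells with B, myeloid or erythroid markers Maf was in 15.7% of anti-IL-2 cells, against 22.2% of tacrolimus cells. The CD8 shares of Maf lie below these, but macrophages among those cells can themselves express Maf, so no cell type here gives a background for Maf, and the part of free RNA in its CD8 shares was not tested.

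Capg was the most widespread member in both tacrolimus gates and in anti-IL-2 CD8 cells, while Maf and Capg were close in anti-IL-2 CD4 cells (48.4% and 45.2%). In anti-IL-2 cells it was in 67.4% of dividing CD4 cells (51.5 to 80.9%), 38.6% of non-dividing CD4 cells (30.7 to 47.1%), 67.3% of dividing CD8 cells (60.4 to 73.7%) and 47.2% of non-dividing CD8 cells (37.5 to 57.1%). In tacrolimus cells it was in 80.3% of dividing CD4 cells (72.9 to 86.4%), 57.9% of non-dividing CD4 cells (44.1 to 70.9%), 73.5% of dividing CD8 cells (68.7 to 77.9%) and 72.9% of non-dividing CD8 cells (58.2 to 84.7%). Capg shares were thus lowest in the non-dividing cells of the anti-IL-2 library, in both gates. Capg summed to 2.26 UMIs per 10000 in tacrolimus CD4 cells (2.09 to 2.45) and 1.92 in tacrolimus CD8 cells (1.82 to 2.03), with up to 17 and 21 UMIs in a cell. Among cells with B, myeloid or erythroid markers it was in 58.8% of anti-IL-2 cells, against 46.7% of tacrolimus cells, where macrophages are known to make it, so no cell type here gives a background for Capg.

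**Figure D2:**
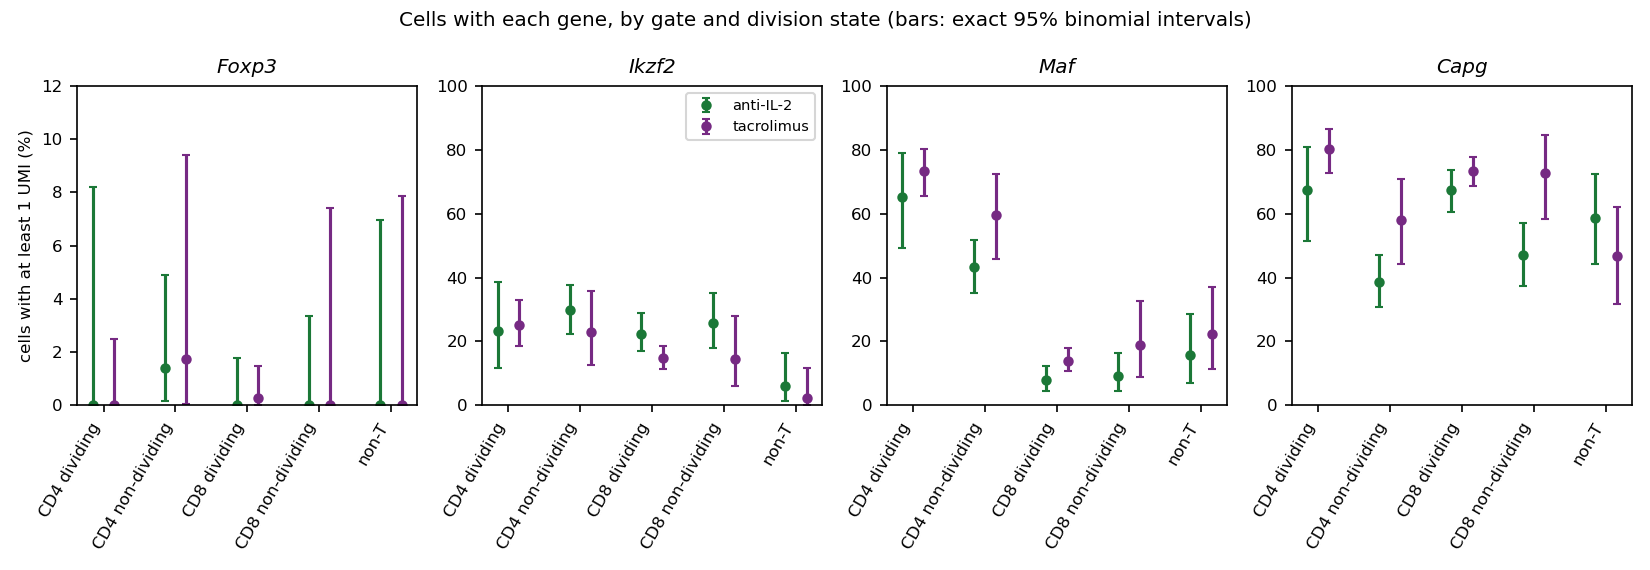
Percent of cells with at least 1 UMI of Foxp3, Ikzf2, Maf and Capg, anti-IL-2 (green) left of tacrolimus (purple), with exact 95% binomial intervals. Shown are dividing and non-dividing CD4 and CD8 cells. The class non-T holds cells with B, myeloid or erythroid markers and no Cd4, Cd8 or Cd5. The Foxp3 axis ends at 12%, Maf separates CD4 from CD8 cells in both libraries, and Capg is lowest in non-dividing anti-IL-2 CD4 cells at 38.6%.

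The next comparison set the libraries side by side, with deeper tacrolimus cells thinned to the UMI totals of the anti-IL-2 cells. This matched the median depth over each whole gate, but not within division states, where the anti-IL-2 cells stayed deeper. Their medians were 16179 against 13202 UMIs in dividing CD4, 9242 against 8564 in non-dividing CD4, 17880 against 15600 in dividing CD8 and 11288 against 8310 in non-dividing CD8 cells. A gene was called higher or lower by a rule of size only, at 1.5-fold or more and a share of at least 5% in either library. Ikzf2 was in more anti-IL-2 than tacrolimus CD8 cells, with 23.6% against 14.7%, a ratio of 1.61 (1.13 to 2.29). This passed the size rule, as did 8.82% of the 930 genes at the minimum share in CD8 cells in the same direction. The Ikzf2 ratio was 1.58 (1.04 to 2.4) in dividing CD8 cells and 1.78 (0.759 to 4.82) in non-dividing CD8 cells, where 8.0% and 26.1% of genes were higher. With both libraries thinned to the lower depth these ratios were 1.38 and 1.46, and neither passed. Over all CD8 cells it was 1.61 with both thinned and 1.64 (1.31 to 2.06) under the wider gate, where 8.49% were higher. In CD4 cells Ikzf2 was in 28.2% of anti-IL-2 cells, against 22.1% of tacrolimus cells, a ratio of 1.28 (0.843 to 1.95) that did not pass. It was 0.924 in dividing and 1.3 in non-dividing CD4 cells, and 0.739 and 1.21 with both libraries thinned. The CD4 ratio passed in anti-IL-2 cells whose totals were read directly (1.7), and under the wider gate it passed in non-dividing cells (1.66, 0.951 to 3.07), where 16.2% of genes were higher.

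Capg went the other way in CD4 cells. It was in 45.2% of anti-IL-2 and 73.0% of tacrolimus CD4 cells, a ratio of 0.619 (0.469 to 0.813), and 37.8% of the 902 genes at the minimum share in CD4 cells were lower by the same rule, so a lower call was common there. The median ratio of all these genes was 0.798. Under the wider gate the Capg ratio was 0.673, and within division states it was 0.84 in dividing and 0.667 in non-dividing CD4 cells. None of these passed, where 38.4%, 12.9% and 24.7% of genes were lower. With both libraries thinned the division-state ratios were 0.782 and 0.596, the second past the rule. The libraries also differed in division, with 43 of 188 anti-IL-2 and 147 of 204 tacrolimus CD4 cells dividing. In CD8 cells Capg was in 60.4% of anti-IL-2 cells, against 72.7% of tacrolimus cells (0.83, 0.689 to 0.998), and the call lower was met in non-dividing CD8 cells alone, with 47.2% against 72.9% (0.648, 0.413 to 1.03, where 15.2% of genes were lower), and a ratio of 0.533 with both libraries thinned. Under the wider gate this ratio was 0.757 and did not pass.

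Maf had ratios below 1 in both gates. In CD4 cells it was in 48.4% of anti-IL-2 cells, against 63.7% of tacrolimus cells, a ratio of 0.76 (0.575 to 1.0) that did not pass the size rule and lay close to the all-gene median of 0.798. It was 0.901 under the wider gate. In CD8 cells Maf was in 8.31% of anti-IL-2 cells, against 14.2% of tacrolimus cells, a ratio of 0.584 (0.354 to 0.94), where 17.0% of genes were lower too. The call was lost in anti-IL-2 cells whose totals were read directly (0.882) and with the integration shift left in (0.729). The pancreatic genes were also lower in anti-IL-2 cells, and their part in the Maf and Capg ratios was not tested.

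The other regulatory T-cell genes did not move as a block between the libraries. Of 18 measured genes of a regulatory T-cell list, 11 reached the minimum share in CD4 cells, of which 2 were higher and 4 lower, beside 13.2% and 37.8% of all genes, with a median ratio of 0.999 beside 0.798 for all genes. Izumo1r was in 27.1% of anti-IL-2 and 12.3% of tacrolimus CD4 cells, and Cd81, a tetraspanin gene, in 16.0% and 10.3%. Il2ra was lower, with 11.2% against 23.5%, as were Entpd1, the gene of the ectoenzyme CD39, with 3.72% against 12.3%, Klrg1 with 6.38% against 10.3%, and Rgs1, a regulator of G-protein signalling, with 20.2% against 37.3%. In CD8 cells 1 of 11 was higher (Izumo1r) and 4 were lower (Il2ra, Entpd1, Socs2 and Klrg1), beside 8.82% and 17.0% of all genes, with a median of 0.882 beside 0.86.

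Genes of the Tr1 list were called about as often as all genes. Of 14 measured, 13 reached the minimum share in CD4 cells, 1 was higher and 5 lower, beside 13.2% and 37.8% of all genes, with a median of 0.83 beside 0.798. Tnfsf8, which encodes CD30 ligand, was in 51.6% of anti-IL-2 and 10.3% of tacrolimus CD4 cells. Among the 5 lower genes were Havcr2, the gene of TIM-3 (9.04% against 37.3%), Gzmb (51.1% against 85.8%), Entpd1 and Il12rb2 (20.2% against 50%). Il10, the cytokine gene that defines Tr1 cells and a target of c-Maf, was in 1.6% of anti-IL-2 and 4.9% of tacrolimus CD4 cells, under the minimum share, and Lag3, a Tr1 surface receptor gene, was in 38.8% and 52.5%, a ratio of 0.74 that did not pass.

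Division was then compared within each library and gate, with dividing cells thinned to the depth of the non-dividing ones. At matched depth Ikzf2 was in fewer dividing than non-dividing cells in all 4 comparisons, but only 2 passed the size rule. In anti-IL-2 CD4 cells it was in 16.3% of dividing and 29.7% of non-dividing cells, a ratio of 0.549 (0.208 to 1.23), where 17.4% of genes were lower and 38.8% higher. In tacrolimus CD8 cells it was in 7.49% of dividing and 14.6% of non-dividing cells, a ratio of 0.513 (0.219 to 1.39), where 12% were lower. The ratios were 0.677 in anti-IL-2 CD8 cells and 0.805 in tacrolimus CD4 cells, where 13.8% and 14.7% of genes were lower. All these intervals include 1, and without thinning the ratio in tacrolimus CD8 cells was 1.01. Also without thinning, Ikzf2 was in 25.2% of dividing and 22.8% of non-dividing tacrolimus CD4 cells. In the anti-IL-2 library it stayed lower in dividing cells, with 23.3% against 29.7% in CD4 and 22.4% against 25.9% in CD8 cells. The lower shares in the tacrolimus library thus depended on thinning.

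Capg was in more dividing cells in 3 of these 4 comparisons, none past the size rule. Its ratios were 1.32 in anti-IL-2 CD4 cells (51.2% against 38.6%) and 1.28 in tacrolimus CD4 cells (74.1% against 57.9%). In anti-IL-2 CD8 cells Capg was in 59.0% of dividing and 47.2% of non-dividing cells, and its ratio was 0.851 in tacrolimus CD8 cells (62.0% against 72.9%). Genes higher in dividing cells were 38.8% in anti-IL-2 CD4, 37.6% in anti-IL-2 CD8, 36.4% in tacrolimus CD4 and 42.9% in tacrolimus CD8 cells, so the Capg values do not stand out. In the CD4 gate, where Maf is common, no difference with division was detectable, at ratios of 1.12 (0.651 to 1.87) in anti-IL-2 and 1.0 (0.669 to 1.54) in tacrolimus cells. In CD8 cells its low shares had ratios of 0.58 in the anti-IL-2 library and 0.428 in the tacrolimus library, both lower by the rule, with intervals that include 1.

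**Figure D3:**
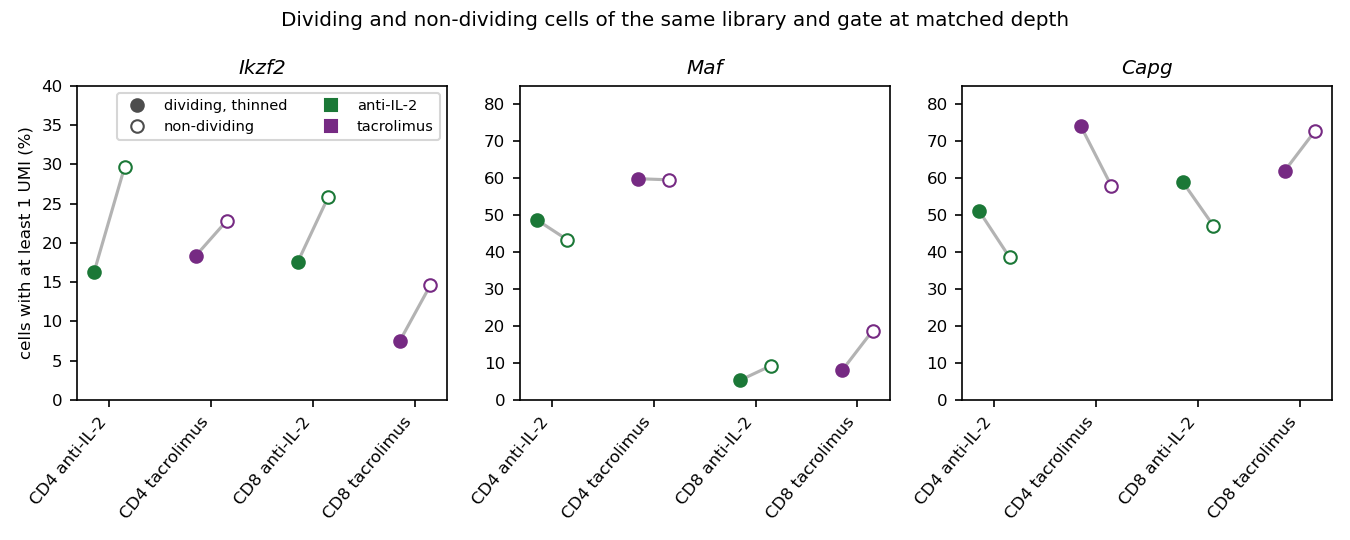
Percent of cells with at least 1 UMI of Ikzf2, Maf and Capg in dividing cells thinned to the depth of the non-dividing cells (filled) and in non-dividing cells (open), for anti-IL-2 (green) and tacrolimus (purple) CD4 and CD8 cells. Ikzf2 is lower in the dividing cells of all 4 pairs, and Capg is higher in 3 of them.

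The last question was what Ikzf2 marked in cells without a Foxp3 UMI. Such a cell may still express Foxp3, since 6 of 10 tacrolimus Foxp3 cells had only 1 UMI. Whether regulatory T cells with undetected Foxp3 were among them was not tested. Within each library and gate, cells with an Ikzf2 UMI and no Foxp3 UMI were set against cells with neither, the second group weighted to the depth and division state of the first. In the anti-IL-2 CD4 gate 51 such cells were with and 135 without Ikzf2. There, most follicular helper and regulatory T-cell genes at the minimum share were called higher with Ikzf2. These calls are by size only, and several of their intervals included 1. Of 893 genes at the minimum share, 186 were higher with Ikzf2 (20.8%) and 106 lower (11.9%). Of the 10 follicular helper genes at the minimum share, 7 were higher and 0 lower, with a median ratio of 1.76 beside 1.05 for all genes. Tox2, a transcription factor gene of follicular helper and chronically stimulated T cells, was in 60.8% of cells with and 28.2% of cells without Ikzf2, a ratio of 2.15 (1.22 to 3.85). Sostdc1, a secreted factor gene of follicular T cells, was in 33.3% and 18.0%. Cxcr5, whose receptor guides cells into follicles, was in 49.0% and 31.9% of cells, a ratio of 1.54 (0.855 to 2.76), and Il21, the follicular helper cytokine gene, in 15.7% and 4.56%. Cxcr5 lost its call when the Foxp3 cells were kept in (ratio 1.38).

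Of 12 regulatory T-cell genes at the minimum share in anti-IL-2 CD4 cells, 8 were higher with Ikzf2 and 1 was lower, with a median of 1.72. No Foxp3 was detected in the cells compared. Of all genes 20.8% were higher and 11.9% lower. Izumo1r was in 47.1% of cells with and 19.2% of cells without Ikzf2, a ratio of 2.45. Under the wider gate it was in 42.5% and 16.4%, a ratio of 2.58 (1.48 to 4.57). Ebi3, a subunit gene of the cytokines IL-27 and IL-35, was in 29.4% and 7.78%, a ratio of 3.78 (1.42 to 11.4), which was 2.14 (0.971 to 4.79) under the wider gate. Tnfrsf4 was in 66.7% and 43.9%, a call that the wider gate did not keep (60% against 46.7%). Ctla4 (74.5% and 61.3%) and Nrp1 (35.3% and 29.9%) did not pass, and Il2ra, in 11.8% and 7.02%, passed in few cells. Of the 8 higher genes only Izumo1r and Ebi3 had intervals above 1. Those of Tnfrsf4 (0.924 to 2.49), Cd81 (0.715 to 4.96), Rgs1 (0.744 to 4.22) and Il2ra (0.446 to 6.33) included 1. So did those of Cd83 and Klrg1, each in 3 cells with Ikzf2. The gene on the lower side was Entpd1, in 0 of 51 cells with Ikzf2 and 5.02% of those without. Under the wider gate 6 of 11 genes were higher and 0 lower, beside 20.1% higher and 7.4% lower of all genes.

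Of the Tr1 list in anti-IL-2 CD4 cells, 2 genes were higher with Ikzf2 (Lag3, 52.9% against 28.2%, and Il21) and 3 lower (Eomes, Entpd1 and Il12rb2). Il10 was in 0 of 51 and 0.802%. Beside this list and the next ones, 20.8% of all genes in this contrast were higher and 11.9% lower. Of 6 genes of the NK-type list at the minimum share, 3 were lower with Ikzf2 and 1 higher. The lower ones were Cd7, Klrd1 and Klrc1. Cd7 was in 29.4% of cells with and 48.0% without Ikzf2. Klrd1, the gene of CD94, was in 3.92% and 20.8%, and Klrc1, the gene of NKG2A, in 13.7% and 26.7%. Klrc1 was not called when the integration shift was left in (ratio 0.91). Klrb1c, the NK1.1 gene, was higher, with 11.8% against 3.1%, as was Klrg1 of the regulatory T-cell list, with 5.88% against 2.25%. Of 8 naive and memory genes 0 were higher and 3 lower. Il7r, the IL-7 receptor gene, was in 23.5% of cells with and 42.2% of cells without Ikzf2. Of the activation genes, Tox (72.5% against 48.3%), Egr1, Cd200 and Lag3 were higher and Nr4a1 was lower. The gate had left out cells with 2 or more B-cell or myeloid markers. The remaining myeloid markers summed to 66.7 percent with and 71.2 percent without Ikzf2, but Cst3 alone gave 60.8% and 67.0%. No other marker of the list was in more than 3.92% of either group, so the sums mostly reflect Cst3. Cebpa, a myeloid transcription factor gene outside that list, was in 19.6% and 0.989%.

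Izumo1r and Tox2 were higher with Ikzf2 in both division states of anti-IL-2 CD4 cells. In 41 non-dividing cells with Ikzf2, Izumo1r was in 46.3% against 21.9%, Tox2 in 61.0% against 32.2% and Cxcr5 in 43.9% against 37.2%, of which Cxcr5 did not pass, and 19.8% of genes were higher. In 10 dividing cells with Ikzf2, Izumo1r was in 50% against 5.54%, Tox2 in 60% against 7.86% and Cxcr5 in 70% against 4.29%. With 10 cells these last values have wide counting error, and 37.2% of genes were higher in that contrast.

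In anti-IL-2 CD8 cells (74 with and 239 without Ikzf2) the genes found with Ikzf2 were those of naive, stem-like and follicular-type cells. Of 946 genes, 113 were higher (11.9%) and 58 lower (6.13%). All 8 measured naive and memory genes reached the minimum share, of which 6 were higher and 0 lower, with a median of 1.81 beside 1.03 for all genes. Tcf7 was in 45.9% of cells with and 29.7% without Ikzf2, Id3, an inhibitor of E-protein transcription factors kept in memory precursors, in 43.2% and 21.8%, and Ccr7, the lymph-node homing receptor gene, in 20.3% and 8.11%. The wider gate kept these calls, for example Tcf7 with 41.6% against 23.2% (1.79, 1.31 to 2.44), where 6.19% of genes were higher and 4.64% lower. Of 10 follicular genes 7 were higher, with Cxcr5 in 20.3% and 7.59%, a ratio of 2.67 (1.14 to 6.49), and Cd200 in 40.5% and 19.4%, and 1 was lower, Il21, with 2.7% against 8.83%. Tox2 was in 36.5% and 20.8% but was not called with the integration shift left in (ratio 1.3). Of 10 regulatory T-cell genes 2 were higher, Izumo1r and Tnfrsf4 (29.7% against 18.1%), and 1 lower, Entpd1, and Izumo1r did not pass under the wider gate (ratio 1.46). Xcl1, a chemokine gene of cells that attract cross-presenting dendritic cells, was in 28.4% and 17.1%. Maf was in 14.9% and 4.99%, and did not keep this under the wider gate, where 16 CD8 cells had both genes and 17.2 were expected.

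In tacrolimus CD4 cells (49 with and 154 without Ikzf2) fewer genes moved with Ikzf2. Of 907 genes 84 were higher (9.26%) and 77 lower (8.49%). Of 13 regulatory T-cell genes at the minimum share 0 were higher and 0 lower, and Izumo1r was in 14.3% of cells with and 14.7% of cells without Ikzf2, a ratio of 0.97 (0.332 to 2.56). Of 9 follicular genes 4 were higher and 0 lower, with a median of 1.37 beside 1.0, namely Cxcr5 (8.16% against 2.82%), Tox2 (6.12% against 3.11%), Rgs16 (16.3% against 7.19%) and Angptl2. Il10 was in 8.16% of cells with and 5.06% without Ikzf2, and Irf4, a transcription factor gene induced by antigen-receptor signalling, in 12.2% and 5.47%, the 2 of 14 Tr1 genes that were higher. Of 9 NK-type genes at the minimum share 5 were lower, with Klrd1 in 20.4% and 37.5% and Cd7 in 14.3% and 29.1%, and 1, Klrk1, was higher. Nr4a2, an orphan nuclear receptor gene induced by calcineurin signalling, was in 4.08% and 17.9%. Tox was in 46.9% and 30%, a call not kept under the wider gate, where 6.98% of genes were higher and 6.22% lower.

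In tacrolimus CD8 cells (61 with and 360 without Ikzf2) few genes passed with Ikzf2. Of 933 genes 37 were higher (3.97%) and 60 lower (6.43%), and the median of all genes was 0.998. Of 7 follicular genes 1 was higher, Tox2, and 2 lower, Id3 and Angptl2, and of 3 naive and memory genes at the minimum share 0 were higher and 2 lower. Klrg1, a receptor gene of terminal effector cells, was in 9.84% of cells with and 25.5% without Ikzf2, but in 18.0% and 22.2% under the wider gate, where it did not pass and 1.92% of genes were higher and 4.48% lower. The NK-type list gave 1 higher gene of 11, Klrb1c. Of 16 activation genes 0 were called. Whether the Ikzf2 pattern differs between the libraries was not tested, since each is 1 library.

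**Figure D4:**
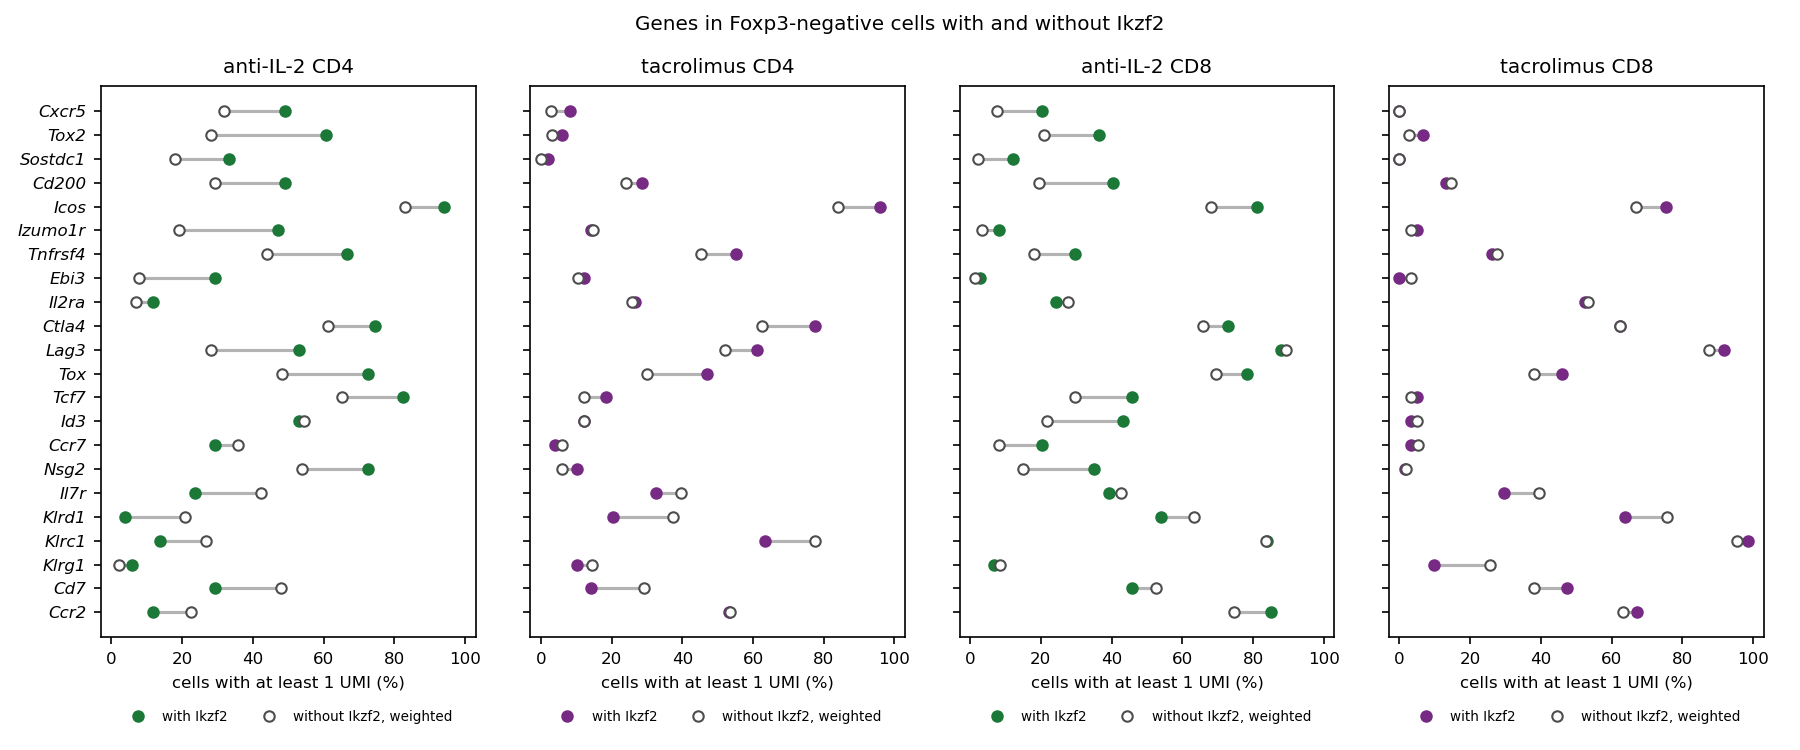
Percent of cells with at least 1 UMI of 22 genes among cells with no Foxp3 UMI, with Ikzf2 (filled) and without Ikzf2 (open). Cells without Ikzf2 are weighted to the depth and division state of the cells with Ikzf2. Shown are CD4 cells (left pair) and CD8 cells (right pair) of each library. Tox2, Izumo1r and Ebi3 are well above the cells without Ikzf2 in anti-IL-2 CD4 cells, Tcf7, Id3 and Cd200 in anti-IL-2 CD8 cells, and the points of most genes lie close together in tacrolimus CD8 cells.

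The genes with the highest and lowest ratios over all measured genes were mostly rare. In anti-IL-2 CD4 cells the 5 highest with Ikzf2 were Tst, Cxcl10, Syk, Cebpa and Bcat1, of which only Cebpa was in more than 4 cells (19.6% against 0.989%). Among the 5 lowest were Cdkn2a, Tmem176a, Cdkn1a and Ccl6, each in 0 of 51 cells with Ikzf2. In anti-IL-2 CD8 cells the highest included Rhod, Csf2, Sostdc1 and Il6ra, with Sostdc1 in 12.2% against 2.28%, and the lowest were Muc1, Sept4, Hist1h4k, Tpst1 and Nos1. In tacrolimus CD4 cells the highest included Tmem176b, Cystm1, Ehd2 and Ccrl2, led in frequency by Ehd2 with 12.2% against 1.75%, and the lowest were Tubb3, Pnlip, Fgr, Fosb and Sdc3. In tacrolimus CD8 cells the highest were Ramp2, Dnase1l3, Pnp2, Gpx7 and Serpinf1, none above 9.84%, and the lowest were Amica1, Tnf, Angptl2, Ralgps2 and Ccl1. Of these last, Amica1, an adhesion molecule gene, was in 0.0% of cells with and 12.4% without Ikzf2, and Tnf, the inflammatory cytokine gene, in 0.0% and 10.0%.

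The number of cells with a pair of members was set beside that expected from their single shares at equal depth and division state. Ikzf2 and Maf were detected together in 31 anti-IL-2 CD4 cells, with 27.4 expected if independent within strata, and in 40 tacrolimus CD4 cells, with 37.2 expected. Under the wider gate both were in 54 anti-IL-2 CD4 cells (47.1 expected) and 58 tacrolimus CD4 cells (45.9 expected). In CD8 cells both were in 11 anti-IL-2 cells (6.68 expected) and 15 tacrolimus cells (9.13 expected), and under the wider gate in 16 anti-IL-2 CD8 cells (17.2 expected) and 31 tacrolimus CD8 cells (21.3 expected). Ikzf2 and Capg were together in 24 anti-IL-2 CD4 cells (22.7 expected), 47 anti-IL-2 CD8 cells (47.1), 35 tacrolimus CD4 cells (37.5) and 43 tacrolimus CD8 cells (47.9). Maf and Capg were together in 43 anti-IL-2 CD4 cells (44.1 expected) and 114 tacrolimus CD4 cells (109). All of Ikzf2, Maf and Capg were in 6.91% of anti-IL-2 and 14.7% of tacrolimus CD4 cells, and none of them in 23.4% and 9.8%.

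The genes whose detection went most closely with a member were ranked by the phi coefficient over 626 gated tacrolimus cells at thinned depth, as a description, since these cells share a library. Maf went with Cd4 (phi 0.53), with Cd40lg, the CD40 ligand gene of helper T cells (0.44), and with Podnl1 (0.26), Tnfrsf4 (0.24) and Ifi27l2a (0.22). Over the 501 anti-IL-2 cells the same coefficients were 0.46, 0.34, 0.27, 0.23 and 0.14. In the tacrolimus cells no gene reached 0.2 with Ikzf2, for which Dnph1 (0.18), Maf, Icos, Ergic1 and Myb (0.16 each) came first, nor did any pass 0.21 with Capg, for which Cdc6, Igfbp7, Pdia4, Il2ra and Marcksl1 came first at 0.2 to 0.21. Over the anti-IL-2 cells the Capg coefficients of these genes were 0.11, 0.26, 0.18, 0.19 and 0.18, with Igfbp7 only the 21st of all genes there, and the Ikzf2 coefficients did not pass 0.13. The tacrolimus ranking of Capg was thus not that of the anti-IL-2 cells.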

How the data were processed

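Per the labels' protocols, libraries came from a Chromium Single Cell 5′ kit and were read on a NextSeq500. The submitters' processing notes name mm10, Seurat without a version, and Cell Ranger 3.1.0. The deposited files hold natural log values of UMIs that the authors scaled per cell, as read from the values themselves. In the tacrolimus file 100.0% of values came out as whole UMIs at a scale of 50000 (tolerance 0.001). The anti-IL-2 values had been batch-integrated, since part of them lay below 0. UMI totals of these cells were therefore fitted, a shift per gene shared over the 30 nearest cells was subtracted, and a gene counted as detected where what remained exceeded 0.5 of what a single UMI is worth. Fitted totals lay within 1.25-fold of the directly read ones in 86.4% of 184 cells. The procedure was run on simulated libraries made from tacrolimus cells alone, and the outcome is not reported here. The 308 anti-IL-2 columns repeated in the tacrolimus file were used once.

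Cells were gated as described in the results. The CD4 and CD8 gates were planned for several T-cell markers and for counts, of which the files held Cd5 alone and log values. No doublet caller was run, and cells with both Cd4 and Cd8a/Cd8b1 were left out. The division limit lay within 5 points of 40 anti-IL-2 and 34 tacrolimus gated cells. Shares have Clopper-Pearson intervals, UMI sums exact Poisson intervals and ratios exact conditional intervals. No p-values were computed, because each treatment was 1 library. Named genes were the 4 members, list genes past the size rule, the 5 highest and 5 lowest ratios of each Ikzf2 comparison, and the 5 genes closest to each member by phi; a few genes that this rule names are not reported here. The members and lists were chosen with earlier results of these data known. Alternatives changed the gene minimum, the division limit, the gates, thinning, weighting, the fold rule and the handling of the integration shift. Python 3.11.15, numpy 2.4.6, pandas 2.3.3, scipy 1.17.1 and matplotlib 3.10.9 were used. Promoter sequence is from RefSeq (GRCm38.p6); no promoter entry was used for Ikzf2 and Maf.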

Additional observations from a re-analysis of the deposited data

Results flagged for a closer look

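Among the genes set against Ikzf2, 5 were higher with it in anti-IL-2 cells and lower with it in tacrolimus cells of the same gate, each by the 1.5-fold rule. The difference between the libraries was not tested for any of them. In CD4 cells Cdc6, a replication licensing gene, had a ratio of 2.29 in the anti-IL-2 library (7.84% of cells with and 3.42% without Ikzf2), against 12.2% and 22.0% in the tacrolimus library. In CD8 cells Id3 had a ratio of 1.99 in the anti-IL-2 library (43.2% and 21.8%), against 3.28% and 5.05% in the tacrolimus library, and Ccr7 a ratio of 2.5 (20.3% and 8.11%), against 3.28% and 5.11%. Tnfsf8 had a ratio of 1.83 in anti-IL-2 CD8 cells (31.1% and 17.0%), against 3.28% and 6.22% in tacrolimus CD8 cells. Angptl2 had a ratio of 1.62 in anti-IL-2 CD8 cells (9.46% and 5.83%), against 0.0% and 6.29% in tacrolimus CD8 cells. The 3.28% of tacrolimus CD8 cells is 2 of 61, and under the wider gate Id3, Ccr7 and Tnfsf8 were in 5.04%, 3.6% and 3.6% of tacrolimus CD8 cells with Ikzf2 and in 3.99%, 2.9% and 3.49% of those without, so their lower side did not hold there. Cdc6 (17.6% against 25.5% in tacrolimus CD4 cells) no longer passed under that gate, and Angptl2 (1.44% against 4.92% in tacrolimus CD8 cells) fell under the minimum share, so no lower call of these 5 genes held under it.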

How the results depend on the processing

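No paired analysis was possible because the labels carry no replicate numbers and each treatment is 1 library. With directly read totals only, the anti-IL-2 over tacrolimus ratio was 1.7 for Ikzf2 in CD4 cells, 0.882 for Maf in CD8 cells and 1.0 for Maf in dividing CD8 cells, the last no longer lower. With the integration shift left in it was 0.736 for Capg in CD4 and 0.729 for Maf in CD8 cells, and with the wider gate 0.673 for Capg in CD4 cells. Without thinning, the dividing over non-dividing ratio was 0.784 for Ikzf2 and 1.75 for Capg in anti-IL-2 CD4 cells, 0.843 for Maf in anti-IL-2 CD8 cells, 1.01 for Ikzf2 and 0.742 for Maf in tacrolimus CD8 cells. With the wider gate it was 0.801 for Maf in anti-IL-2 and 0.68 for Ikzf2 in tacrolimus CD8 cells. A 2-fold rule left 89 genes higher and 54 lower with Ikzf2 in anti-IL-2 CD4 cells, 44 and 25 in anti-IL-2 CD8 cells, 33 and 39 in tacrolimus CD4 cells, and 19 and 31 in tacrolimus CD8 cells. The wider gate gave 66 lower in anti-IL-2 CD4, 60 higher in anti-IL-2 CD8 and 18 higher in tacrolimus CD8 cells. Without depth weighting 95 were higher and 30 lower in tacrolimus CD8 cells. Fewer genes passing a 2-fold rule follows from the rule, and the cause of the other changes was not tested. Of the alternative member shares 247 stayed within the interval of the reported value and 13 did not. Small classes, the single measured T-cell marker, the fitted totals and the integration shift each limit precision.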
